A study of Mus musculus with 16 samples.

Results

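Transcripts of 7 metalloprotease genes and of 3 TIMP inhibitor genes were followed in mouse macrophages with and without the transcriptional repressor Bhlhe40. The proteases were the secreted matrix metalloproteinases Mmp8, Mmp9, Mmp12, Mmp13 and Mmp19, the membrane-anchored Mmp14 and the membrane protease Adam8. The inhibitors were Timp1, Timp2 and Timp3. The genes were chosen by symbol, 10 out of 19938 genes with a named probe set, and every one was read by 1 probe set that no other gene shares. Testing required a reading above the median of the array on 2 or more arrays, and 8 of the 10 met this. Timp3 and Mmp13 did not pass, so their levels are given without a test.

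The data were 16 one-colour Affymetrix gene arrays of macrophages sorted from male C57BL/6 mice. Alveolar macrophages (AM), which live in the airspaces of the lung, came from lung digests of untreated mice that were Bhlhe40+/+ (WT, 2 arrays) or Bhlhe40-/- (KO, 2 arrays). Large peritoneal macrophages (LPM) came from peritoneal lavage of untreated WT mice (3 arrays) and KO mice (3 arrays). Further LPM came from mice that had received IL-4c on days 0 and 2 and were killed on day 4, with 2 arrays each of WT, of KO and of LysM-Cre+ Bhlhe40 fl/fl mice, called LysM here. In the field IL-4c denotes interleukin-4 bound to an antibody that prolongs its action. The LysM promoter drives Cre in myeloid cells in general, so the deletion is not limited to LPM, and neither floxed mice without Cre nor Cre mice without the floxed gene were analysed here. The labels do not give the age of the mice or state that replicate arrays are separate animals. The p-values therefore reflect variation among these arrays, which may be technical.

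Bhlhe40 itself read 9.57 and 10.07 in WT AM against 7.53 and 7.75 in KO AM on the log2 scale, 8.64 to 8.75 against 6.50 to 7.11 in naive LPM, and 8.77 and 8.99 against 8.01 and 7.90 in IL-4c LPM. Every KO array was below every WT array of its set. The arrays labelled LysM read 8.75 and 8.83, and their difference from WT, -0.09 ± 0.19 (SE), was not called (limma, adjusted p = 0.837). No source used here places the probes inside or outside the floxed part, and this level is therefore no check on the LysM label. Of 11 measured AM markers, 11 exceeded the background reference on all AM arrays, and the same held for 11 of 11 LPM markers on all LPM arrays. For that reference, the probe sets of olfactory receptors (1035 in all) were taken on each array and their 95th percentile read, which gave 4.37 to 4.68. The AM marker count alone does not separate the tissues, since 6 to 9 of 11 also exceeded it on all arrays of each LPM group. AM markers averaged 10.45 to 10.72 on AM arrays and 5.53 to 6.86 on LPM arrays. LPM markers averaged 4.60 to 4.83 on AM arrays and 10.70 to 10.95 on naive LPM arrays. After IL-4c LPM markers averaged 9.88 to 10.21, and limma called 6 of 11 lower in WT and 5 in KO, with 0 higher.

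Matrix metalloproteinases are zinc enzymes made as inactive precursors. They cut collagens, elastin and other matrix proteins as well as cytokines and their receptors. ADAM proteases are membrane-bound and mainly shed the outer parts of surface proteins. TIMPs bind the active site of MMPs and of some ADAM proteases and block it, and TIMP2 also takes part in activating pro-MMP2 on MMP14. Macrophages use the system when they migrate and when tissue is broken down or rebuilt, and AM are a main source of MMP12, the macrophage elastase.

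Promoter windows, the 250 bases before an annotated transcription start, were found for 8 of the 10 genes in RefSeq sequence of build GRCm38.p6, and none was used for Mmp9 and Mmp19. Windows are shown for Timp1, the gene with the strongest response to IL-4c, for Mmp12 and Mmp13, which were highest on the same array, and for Mmp27, the cluster neighbour that differed by genotype. They were searched on both strands for CACGTG (the E-box that basic helix-loop-helix repressors of this family bind), TGAGTCA (an AP-1 site) and the STAT6 half-sites TTC and GAA with any 4 bases between them. None of the matches overlapped. Capitals mark a match, and all windows are written 5′ to 3′ along the gene's strand, which is + for all 4.
Timp1, chrX:20869916-20870165: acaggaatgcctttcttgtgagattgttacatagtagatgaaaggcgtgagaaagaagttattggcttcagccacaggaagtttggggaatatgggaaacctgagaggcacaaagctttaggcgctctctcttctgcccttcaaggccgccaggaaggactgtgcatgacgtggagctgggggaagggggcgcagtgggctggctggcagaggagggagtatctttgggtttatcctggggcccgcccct
Mmp12, chr9:7347124-7347373: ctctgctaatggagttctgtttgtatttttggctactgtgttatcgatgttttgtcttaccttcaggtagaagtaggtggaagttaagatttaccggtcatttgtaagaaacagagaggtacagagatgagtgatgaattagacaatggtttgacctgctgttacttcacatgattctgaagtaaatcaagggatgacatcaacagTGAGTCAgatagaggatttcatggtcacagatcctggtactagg
Mmp13, chr9:7272264-7272513: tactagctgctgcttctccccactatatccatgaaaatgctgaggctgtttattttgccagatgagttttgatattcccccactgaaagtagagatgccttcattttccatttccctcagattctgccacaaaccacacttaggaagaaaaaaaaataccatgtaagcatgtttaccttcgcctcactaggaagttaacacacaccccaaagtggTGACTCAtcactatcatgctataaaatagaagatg
Mmp27, chr9:7571146-7571395: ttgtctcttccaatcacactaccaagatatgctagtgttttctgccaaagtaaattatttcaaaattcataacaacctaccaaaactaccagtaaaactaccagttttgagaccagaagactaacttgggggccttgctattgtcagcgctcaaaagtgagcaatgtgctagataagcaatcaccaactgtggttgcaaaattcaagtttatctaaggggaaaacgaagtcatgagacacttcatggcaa
The AP-1 letters stood 44 to 38 bases before the start in this Mmp12 window, on the + strand, and 35 to 29 bases before the start of Mmp13, on the - strand. The Mmp12 start shown lies within the gene as annotated (7344397 to 7360461). Another annotated start lies at the 5′ end of the gene. Its window, 7344147 to 7344396, held no match and is not shown. No other window of the 10 genes, nor that of Mmp27, held any of the 3 motifs. Of 32851 windows of this length, 4.46% held the AP-1 letters, 6.02% the E-box and 5.85% the STAT6 spacing, so a match or its absence is a description of letters only.

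Values throughout are log2 signals, and a difference is a difference of log2 group means with its standard error from the fit. Because probes differ in how brightly they report, levels are compared between groups of arrays and not between genes. A difference was called where limma's Benjamini-Hochberg adjusted p over the 11634 genes tested was under 0.05. Timp1 exceeded the array median only on the 6 IL-4c arrays, Mmp8 only on the 4 AM arrays and Mmp9 only on the 6 naive LPM arrays. Mmp12 exceeded it only on the 4 AM arrays, IL-4c KO replicate 1 and LysM replicate 1. These genes entered the test through the groups where they were high. Their calls for those groups, and the counts of members that hold them, are therefore not independent of the filter. In these bulk samples, fewer cells of one type and less RNA per cell cannot be told apart.

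**Figure D1:**
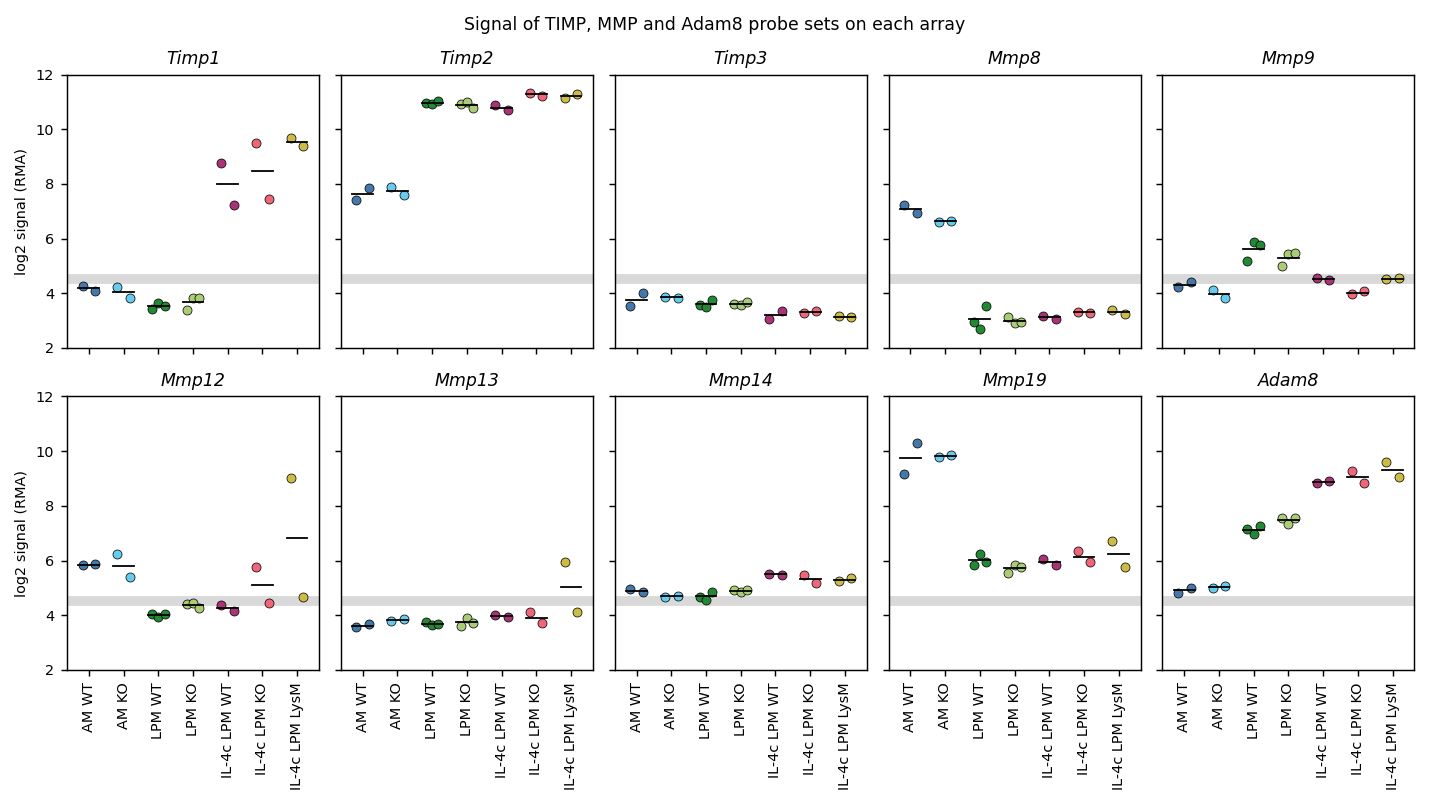
Log2 signal (RMA) of the 10 genes on each of the 16 arrays, 1 point an array, with the 7 groups along the x axis and a line at each group mean; the grey band is the range over arrays (4.37 to 4.68) of the background reference. Timp1 lies above the band only on the 6 IL-4c arrays (7.24 to 9.68), Mmp8 only on the 4 AM arrays (6.60 to 7.23), and Mmp12 reached 9.01 on 1 LysM array.

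IL-4c raised Timp1, Adam8 and Mmp14 and lowered Mmp9 in LPM of both genotypes. In WT LPM 4 of the 8 tested genes were called, 3 higher and 1 lower, where 41.2% of all genes tested were called, 22% higher and 19.2% lower. In KO LPM 5 were called, 4 higher and 1 lower, against 37.3% of all genes, 21.9% higher and 15.4% lower. The members' share was near the background in WT and above it in KO. Of the 5 KO calls, that of Timp2 held under only 10 of 25 alternative settings. With 8 genes no result is drawn from these shares, and the results below rest on the single genes. The members' median difference was 0.16 in WT and 0.42 in KO, against 0.02 and 0.04 over all genes tested.

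Timp1, the secreted inhibitor of most MMPs and of ADAM10, rose from a background reading to one of 22.0 times that signal after IL-4c in WT LPM and 27.5 times in KO LPM. Naive WT arrays read 3.41, 3.66 and 3.55 and naive KO arrays 3.38, 3.83 and 3.82. After IL-4c the WT arrays read 8.75 and 7.24, the KO arrays 9.49 and 7.44, and the LysM arrays 9.68 and 9.38. Every IL-4c array stood above every naive array, AM included, and all naive arrays lay below the background reference, so the folds and differences give the direction and only part of the size. The difference was 4.46 ± 0.45 in WT (adjusted p = 1.56e-06) and 4.78 ± 0.45 in KO (adjusted p = 1.40e-06). The arrays of a pair were far apart: the gap was 1.51 between the WT arrays, which ranked 7 among all genes tested, and 2.05 between the KO arrays, which ranked 10. Leaving out the higher or the lower WT array gave 3.71 or 5.21, and for KO 3.76 or 5.81, all still called. The gene lies within Syn1 on chromosome X (20870166 to 20874737, inside 20860511 to 20920918), and Syn1 differed by -0.05 ± 0.20 in WT and 0.29 ± 0.20 in KO, neither called.

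Adam8, a sheddase of leukocytes, rose 3.34-fold in WT LPM and 2.99-fold in KO LPM. Naive LPM read 7.17, 6.97 and 7.25 in WT and 7.54, 7.32 and 7.57 in KO, while IL-4c LPM read 8.85 and 8.89 in WT, 9.28 and 8.83 in KO and 9.59 and 9.05 in LysM. Every IL-4c array was above every naive array. The differences were 1.74 ± 0.17 (adjusted p = 1.20e-06) and 1.58 ± 0.17 (adjusted p = 5.44e-06).

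Mmp14, the membrane collagenase that also activates pro-MMP2, moved less. It rose 1.74-fold in WT LPM, from 4.67, 4.55 and 4.85 to 5.51 and 5.47, and 1.34-fold in KO LPM, from 4.91, 4.86 and 4.93 to 5.47 and 5.17. The groups did not overlap in either genotype. The differences were 0.80 ± 0.13 (adjusted p = 1.07e-04) and 0.42 ± 0.13 (adjusted p = 0.0151). The call in KO was lost under 2 of 25 alternative settings.

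Mmp9, the gelatinase that cuts denatured and basement-membrane collagen, fell by 1.09 ± 0.19 in WT (2.13-fold lower, adjusted p = 2.31e-04) and by 1.28 ± 0.19 in KO (2.43-fold lower, adjusted p = 8.87e-05). It read 5.19, 5.87 and 5.75 on naive WT arrays and 5.01, 5.43 and 5.46 on naive KO arrays, all above the background reference. After IL-4c it read 4.55 and 4.47 in WT, 3.98 and 4.07 in KO and 4.53 and 4.54 in LysM. Naive and treated arrays did not overlap, and the KO arrays after IL-4c were no longer above the reference, which limits the size read in KO.

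Mmp9 is also a granule protease of neutrophils, so a list of 12 neutrophil markers was read beside it. Its mean level was 4.86 to 4.92 on naive WT arrays and 4.55 to 4.67 on IL-4c WT arrays, against 4.65 to 4.68 and 4.58 to 4.72 in KO. In WT 2 of 5 tested markers fell after IL-4c, Csf3r by 3.74 and S100a8 by 1.19, and in KO Csf3r fell by 1.82 while Prtn3 and Cxcr2 rose by 1.76 and 0.44. The defining marker Ly6g read 2.42 to 3.46 and Mpo 4.13 to 4.48 on all 16 arrays, both at background. B cell markers also fell after IL-4c, 4 of 5 tested in each genotype. The part of either list in the Mmp9 difference was not tested.

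The other tested genes showed less. Timp2, which inhibits MMPs and helps MMP14 activate pro-MMP2, rose by 0.38 ± 0.14 in KO (adjusted p = 0.0462) from 10.77 to 10.98 on naive arrays to 11.33 and 11.21, but the call held under only 10 of 25 alternative settings. In WT its difference was -0.18 ± 0.14. Mmp19 differed by -0.07 ± 0.28 in WT and 0.42 ± 0.28 in KO, and Mmp12 by 0.25 ± 0.76 and 0.72 ± 0.76, none called. Mmp8 stayed below the background reference on every LPM array, with or without IL-4c. Timp3, an inhibitor that binds to matrix, read 3.48 to 3.74 on naive LPM arrays and 3.04 to 3.34 on IL-4c arrays, below the reference throughout.

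**Figure D2:**
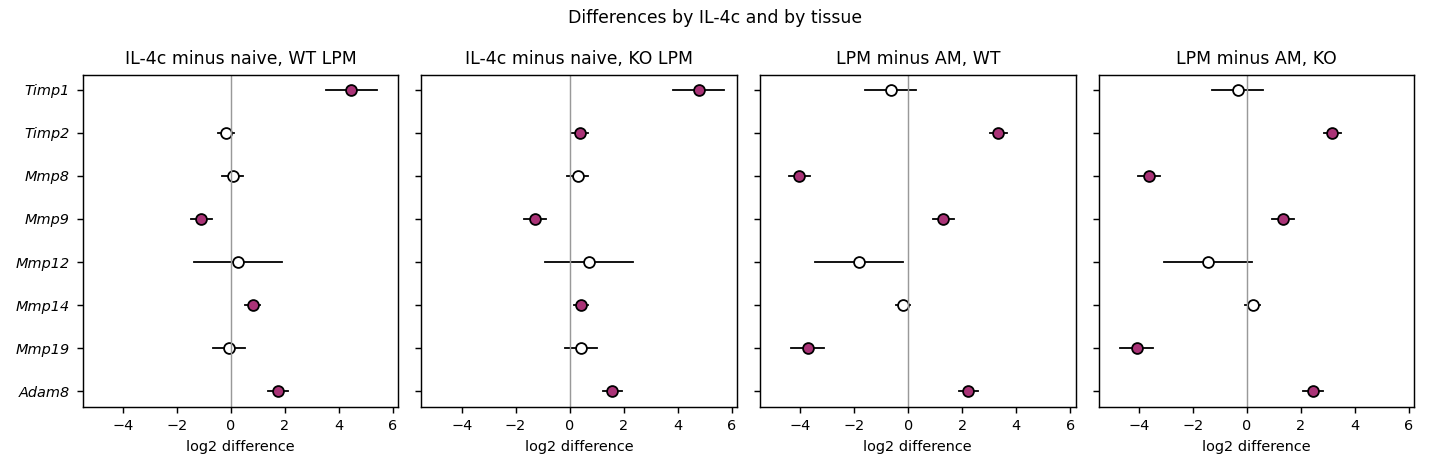
Log2 difference of the 8 tested genes for IL-4c against naive LPM and for naive LPM against AM, each in WT and KO, with 95% confidence intervals from the fit; filled points were called (adjusted p under 0.05). Timp1 stands at 4.46 and 4.78 for IL-4c, while Mmp8 and Mmp19 lie near -4 and Timp2 above 3 for LPM against AM.

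AM and LPM differed in the levels of several members. Timp2, Mmp14, Mmp19 and Adam8 were above the background reference on every array of both, while Mmp8 and Mmp12 passed it in naive cells only in AM and Mmp9 only in LPM. LPM had more Timp2, Adam8 and Mmp9, and AM had more Mmp8 and Mmp19. In naive WT cells 5 of the 8 tested genes were called, 3 higher and 2 lower in LPM, where 38.3% of all genes were called, 21.2% higher and 17.1% lower. The same 5 genes were called in the same directions in KO cells, against 40% of all genes, 17.3% higher and 22.8% lower.

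Timp2 read 7.42 and 7.86 in WT AM and 7.87 and 7.58 in KO AM, against 10.95, 10.93 and 11.03 in WT LPM and 10.91, 10.98 and 10.77 in KO LPM. All AM arrays lay below all LPM arrays. The difference was 3.33 ± 0.14 in WT (10.1-fold, adjusted p = 1.23e-11) and 3.16 ± 0.14 in KO (8.94-fold, adjusted p = 2.48e-11). Adam8 was near background in AM, at 4.82 to 5.08 over the 4 arrays, so that LPM exceeded AM by 2.22 ± 0.17 in WT (4.66-fold, adjusted p = 1.61e-08) and by 2.44 ± 0.17 in KO (5.42-fold, adjusted p = 5.08e-09). Mmp9 was below the reference on all 4 AM arrays, at 4.23 and 4.40 in WT and 4.13 and 3.81 in KO, and LPM exceeded AM by 1.29 ± 0.19 and 1.33 ± 0.19 (adjusted p = 3.09e-05 and 2.17e-05). Since AM lie at background for Mmp9, these differences give the direction and only part of the size.

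Mmp8, the neutrophil collagenase, was read above the background reference on the 4 AM arrays only. It stood at 7.23 and 6.94 in WT AM and 6.60 and 6.66 in KO AM, and at 2.69 to 3.53 on all 12 LPM arrays. The differences were -4.03 ± 0.19 and -3.63 ± 0.19 (adjusted p = 2.69e-11 and 1.04e-10), and since LPM lie at background they give the direction and only part of the size. The neutrophil marker list had a mean level of 4.47 to 4.78 on AM arrays and 4.65 to 4.92 on naive LPM arrays, and Ly6g read 2.42 to 2.70 on AM arrays. Neutrophil markers above the reference on all AM arrays of a genotype numbered 4 of 12, with S100a8, Cxcr2 and Csf3r among them in both genotypes. The AM samples also read higher for epithelial and endothelial markers, with a mean level of 5.19 to 5.60 against 3.87 to 4.16 in naive LPM. Of 7 tested, 4 were lower in LPM in each genotype. Of 3 tested fibroblast and mesothelial markers Krt19, a keratin, was called, 6.53 lower in LPM in both genotypes, and the median difference of the 3 was -0.11 in WT and 0.08 in KO. The part of these cells in the differences between AM and LPM was not tested.

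Mmp19, a protease of basement-membrane proteins found in macrophages, read 9.18 and 10.30 in WT AM and 9.79 and 9.85 in KO AM, against 5.56 to 6.24 on the naive LPM arrays. It was 13.3-fold lower in WT LPM (difference -3.73 ± 0.28, adjusted p = 1.61e-08) and 17.1-fold lower in KO LPM (-4.09 ± 0.28, adjusted p = 5.12e-09). The 2 WT AM arrays differed by 1.11 from each other, which ranked 29 among the genes tested, yet both stood far above all LPM arrays.

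Mmp12, the macrophage elastase, read 5.82 and 5.86 in WT AM and 6.24 and 5.38 in KO AM, against 4.06, 3.94 and 4.05 in WT LPM and 4.42, 4.43 and 4.27 in KO LPM. No AM array overlapped with a naive LPM array, and all naive LPM arrays lay at background. The differences, -1.82 ± 0.76 in WT (adjusted p = 0.0722) and -1.44 ± 0.76 in KO (adjusted p = 0.151), were not called in the fit over all arrays, whose variance for Mmp12 includes the spread between the LysM arrays. Without either LysM array the same differences were called (adjusted p = 8.74e-05 in WT and 7.68e-04 in KO), as they were in a fit of only the arrays compared (5.21e-07 and 5.31e-04). These Mmp12 calls are not independent of the filter, since Mmp12 exceeded the array median on all AM arrays and on no naive LPM array. Timp1, Mmp14, Timp3 and Mmp13 differed by at most 0.65 between the tissues in either genotype. Neither Timp1 nor Mmp14 was called, and the others were not tested. Timp1 in WT was called in the fit of only the arrays compared (-0.65, adjusted p = 0.00262), with all arrays at background.

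None of the 8 tested genes was called between Bhlhe40 genotypes. In limma the count of called members was 0 in naive AM (0.12% of all genes called), in naive LPM (1.88%), in IL-4c LPM for KO against WT (3.63%), for LysM against WT (8.67%) and for LysM against KO (0.0172%). At an unadjusted p under 0.05 the counts were 1, 1, 2, 4 and 2 of 8, where 5.33%, 15.1%, 16.9%, 22.3% and 8.8% of all genes passed. The count in naive LPM lay near that share and the others above it. With only 8 genes such counts are coarse, and no result about the members is drawn from them. With 2 or 3 arrays a group the intervals are wide, and a missing call does not show that levels were alike. Intervals were widest for Timp1 and Mmp12, whose variance, shared by all groups, includes the spread between their IL-4c arrays. The standard deviation of Mmp12 was 3.07 in LysM, against 0.07 in naive WT LPM and 0.09 in naive KO LPM.

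**Figure D3:**
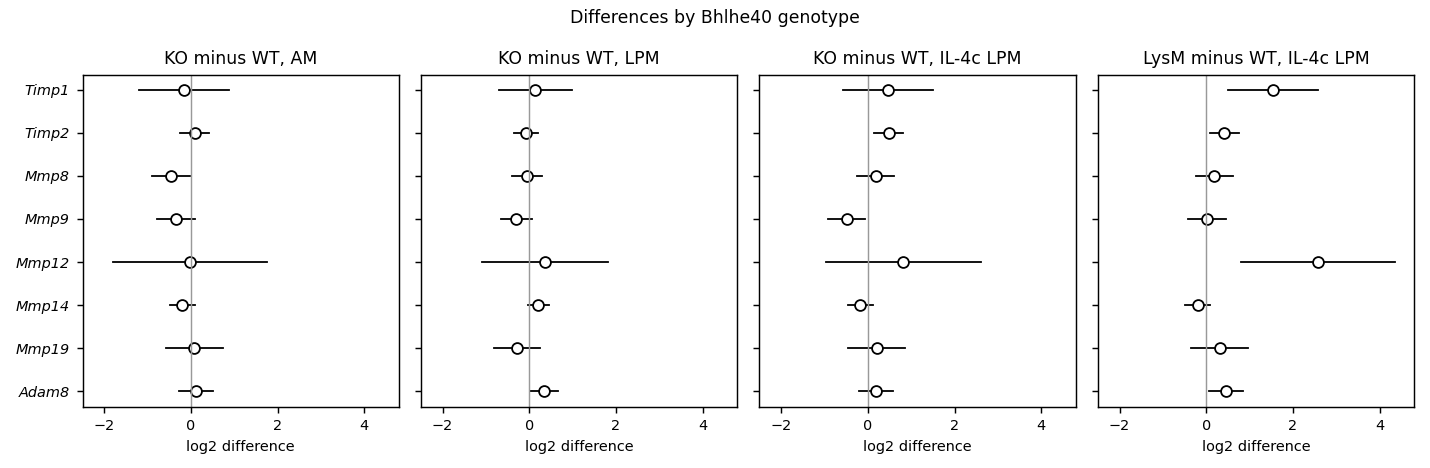
Log2 difference between Bhlhe40 genotypes of the 8 tested genes in naive AM, naive LPM and IL-4c LPM, with 95% confidence intervals from the fit; open points were not called. The intervals of Timp1 and Mmp12 are the widest, and only for LysM against WT do both lie above 0.

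In naive AM the gene with an unadjusted p under 0.05 was Mmp8, at 7.23 and 6.94 in WT and 6.60 and 6.66 in KO. Its difference was -0.46 ± 0.20 (adjusted p = 0.934). Of the 5 tested neutrophil markers, Csf3r was 1.28 ± 0.19 higher in KO AM (limma, adjusted p = 0.00577), and its part in the Mmp8 reading was not tested. In naive LPM the gene with an unadjusted p under 0.05 was Adam8, at 6.97 to 7.25 in WT and 7.32 to 7.57 in KO (0.34 ± 0.15, adjusted p = 0.295). The other naive differences had intervals that included 0. For Timp2 the interval ran from -0.25 to 0.42 in AM and from -0.36 to 0.19 in LPM.

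After IL-4c, KO and WT differed most clearly in Timp2 and Mmp9. Timp2 read 11.33 and 11.21 in KO against 10.88 and 10.69 in WT, a difference of 0.48 ± 0.16 (1.40-fold, adjusted p = 0.112). Mmp9 read 3.98 and 4.07 against 4.55 and 4.47, a difference of -0.49 ± 0.20 (adjusted p = 0.229). Neither was called in the data as deposited. Timp2 was called after quantile normalization again, at 0.52 (limma, adjusted p = 0.0445). Timp1 differed by 0.46 with an interval from -0.57 to 1.50, its KO arrays (9.49 and 7.44) enclosing its higher WT array (8.75).

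LysM LPM read highest of all groups for Timp1, Adam8, Mmp12 and Mmp13. This comparison uses the same WT arrays as KO against WT, so they are not independent. Timp1 was at 9.68 and 9.38 in LysM against 8.75 and 7.24 in WT. The difference of 1.53 ± 0.49, with an interval from 0.50 to 2.57, missed the threshold (adjusted p = 0.0639). The lower WT array decides its size: the difference was 2.28 without the higher WT array (adjusted p = 0.0181) and 0.78 without the lower one (adjusted p = 0.511). Without either KO array it stayed at 1.53 and was called (adjusted p = 0.0093 without KO replicate 1 and 0.00924 without replicate 2). Timp2 was 0.41 ± 0.16 and Adam8 0.45 ± 0.18 above WT (adjusted p = 0.126 and 0.154). After quantile normalization again Timp2 was called, at 0.53 (limma, adjusted p = 0.0245).

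Mmp12 set the LysM arrays apart from each other. Replicate 1 read 9.01 and replicate 2 read 4.67, where WT read 4.39 and 4.15 and KO 5.76 and 4.43. That gap of 4.34 was the widest of all 11634 genes tested between the LysM arrays, ahead of Pdpn at 3.40, a mucin-like membrane protein. Mmp13, the interstitial collagenase, followed the same array: it read 5.94 on replicate 1 and 4.11 on replicate 2, and 3.57 to 4.11 on every array other than replicate 1. The Mmp12 difference from WT was 2.57 ± 0.84 with both arrays (adjusted p = 0.0705), 4.74 without replicate 2 (adjusted p = 6.76e-06) and 0.40 without replicate 1 (adjusted p = 0.714). It therefore rests on 1 array. Of the genes tested, 177 differed by more than 1 on the log2 scale between the LysM arrays, against 132 between the IL-4c KO arrays and 13 to 88 between arrays of the other groups. The mean level of 11 monocyte, small peritoneal macrophage and dendritic cell markers was 5.43 to 5.72 on the LysM arrays, 5.68 to 5.72 in KO and 5.06 to 5.39 in WT after IL-4c. Only 1 of 7 tested, Plac8, was called higher in KO or LysM than in WT, and it was 7.12 on LysM replicate 1 and 9.41 on replicate 2. Irf4 was called lower in LysM than in WT, by 0.80. The part of such cells in the Mmp12 signal was not tested.

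Whether the response to IL-4c or the difference between tissues itself depended on Bhlhe40 was tested as an interaction, and 0 of 8 genes were called in limma for either (0.55% and 0.249% of all genes). Unadjusted p-values under 0.05, which 13.1% of all genes had for either, were found for Timp2 by IL-4c, whose KO response exceeded that of WT by 0.57 ± 0.20 (adjusted p = 0.231), and for Mmp14. The Mmp14 response to IL-4c was smaller in KO by -0.38 ± 0.18 (adjusted p = 0.382), and its genotype difference was larger in LPM than in AM by 0.40 ± 0.18 (adjusted p = 0.348). The IL-4c interaction of Timp1 was 0.32 ± 0.63 and that of Adam8 -0.16 ± 0.24.

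Ordered by group means, Timp1 ran LysM, KO and WT after IL-4c, and then the 4 naive groups. Neighbouring IL-4c groups overlapped, and so did naive WT and KO of each tissue. Adam8 followed the same order among LPM, with AM last. Timp2 separated into LPM and AM, with IL-4c KO and LysM just above the naive LPM groups. Mmp8 and Mmp19 were led by the AM groups, and for Mmp19 all 5 LPM groups overlapped with their neighbours in the order.

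Mmp8, Mmp12 and Mmp13 lie in a run of MMP genes on chromosome 9, and the neighbours were read array by array to see how far each member's pattern extends. In the order Mmp13, Mmp12, Mmp1b, Mmp3, Mmp1a, Mmp10, Mmp8, Mmp27, Mmp20 and Mmp7, all 10 had a probe set (GRCm38.p6, Mmp13 at 7272514 to 7283333, Mmp12 at 7344397 to 7360461, Mmp8 at 7558429 to 7568486). Mmp1b, Mmp3, Mmp1a, Mmp10, Mmp20 and Mmp7 stayed between 2.25 and 4.46 on every array and were not tested. The high Mmp12 and Mmp13 signals of LysM replicate 1 were not shared by Mmp1b (2.51), the gene that follows Mmp12 in this order, nor the high Mmp8 signal of AM by Mmp10 or Mmp27 on its sides.

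Mmp27, which starts 2909 bases after the end of Mmp8, was the only 1 of the 3 tested genes of the run called between Bhlhe40 genotypes. It exceeded the array median only on the KO and LysM arrays after IL-4c. It thus entered the test through the groups where it was high, and its calls for those groups are not independent of the filter. It read 3.70 to 3.98 in AM, 4.03 to 4.25 in naive WT LPM and 4.39 to 4.60 in naive KO LPM. After IL-4c it read 4.39 and 3.84 in WT, 6.26 and 5.70 in KO and 6.75 and 6.61 in LysM, so that the KO and LysM arrays stood apart from all others. The difference from WT was 1.86 ± 0.19 in KO (adjusted p = 6.19e-05) and 2.56 ± 0.19 in LysM (adjusted p = 2.32e-06), with the WT arrays shared. IL-4c changed it by 1.50 ± 0.18 in KO (adjusted p = 1.27e-05) and by -0.03 ± 0.18 in WT (adjusted p = 0.912). The interaction, 1.53, was called (adjusted p = 0.00999) but not without IL-4c WT replicate 2 or without IL-4c KO replicate 1, where the adjusted p reached 0.064. Mmp27 was above the background reference on 0 of 2 WT arrays after IL-4c and on 0 of 3 naive WT arrays. On the naive KO arrays it passed on 1 of 3. The differences from WT, the IL-4c change in KO and the interaction therefore give the direction and only part of the size. Some markers of other cells differed along with it. Plac8 was 5.31 higher in KO and 4.36 higher in LysM than in WT after IL-4c, with an interaction of 4.92 (adjusted p = 0.00413). Csf3r was 1.07 and 1.29 higher, with an interaction of 1.92 (adjusted p = 0.00255). Of the lists that hold them, 1 of 7 tested monocyte, small peritoneal macrophage and dendritic cell markers and 1 of 5 neutrophil markers were higher in each comparison, and Ly6g and Mpo stayed at background. The median difference of those 7 was 0.08 in KO and 0.04 in LysM. Other markers were called the other way after IL-4c: Irf4, of the first list, 0.80 lower in LysM, and Hdc and Pecam1, of other lists, 1.25 and 0.77 lower in KO. The part of such cells in the Mmp27 difference was not tested.

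**Figure D4:**
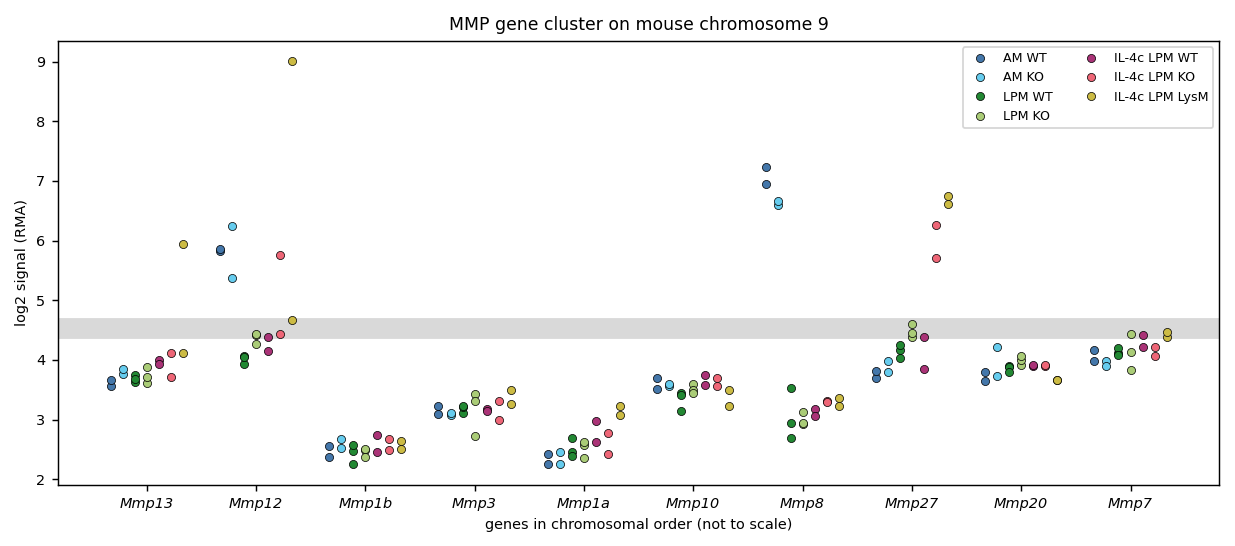
Log2 signal on each of the 16 arrays of the 10 MMP genes of the chromosome 9 run, in chromosomal order and not to scale; colours mark the 7 groups and the grey band the background reference (4.37 to 4.68). Mmp12 and Mmp13 are highest on the same LysM array (9.01 and 5.94), Mmp8 on the AM arrays, and Mmp27 on the KO and LysM arrays after IL-4c.

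Among the other genes of the system, 17 further MMPs were listed, of which 16 had a probe set and 3 were tested. Besides Mmp27, Mmp28 was called: this MMP, known as epilysin, rose by 1.02 ± 0.12 after IL-4c in WT and by 0.78 ± 0.12 in KO (adjusted p = 7.02e-06 and 1.35e-04). It was lower in LysM than in WT by -0.64 ± 0.13 (adjusted p = 0.00713), the opposite sign to Mmp27. Of 12 further ADAMs 6 were tested, and Adam9, Adam10 and Adam15 rose together with Adam8 after IL-4c, by 0.83, 0.82 and 0.61 in WT and 0.96, 0.90 and 0.65 in KO, where 22% and 21.9% of all genes rose. None of the 6 was called between genotypes. Between tissues Adam15 was 1.98 higher in LPM and Adam22 2.69 lower in WT, and Adam17, the main sheddase of TNF, was 0.63 lower. Adam22 read 2.98 to 3.62 on the LPM arrays, below the background reference, so its difference gives the direction and only part of the size. Of 18 measured ADAMTS genes 5 were tested, and 0 or 1 of them were called in any comparison.

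Of 7 tested receptors and binding partners of these proteins, 2 were called between KO and WT after IL-4c (3.63% of all genes), 3 between LysM and WT (8.67%) and 0 between LysM and KO in limma, with 0 at an unadjusted p under 0.05. Cd63, a tetraspanin that binds TIMP1 at the cell surface, and Lrp1, an endocytic receptor that clears MMPs and TIMPs, were higher in KO than WT after IL-4c, and Cd44, which docks MMP9, joined them in LysM. Cd63 read 9.31 and 8.28 in WT, 10.36 and 9.82 in KO and 10.87 and 10.30 in LysM, without overlap with WT. Its differences were 1.29 ± 0.27 (adjusted p = 0.0141) and 1.79 ± 0.27 (adjusted p = 8.53e-04). The WT level after IL-4c was 1.57 below naive WT, and the KO level 0.73 below naive KO, both called, the KO call being lost under 3 of 25 alternative settings. The difference between these responses, 0.84 ± 0.35, was not called (adjusted p = 0.316), nor was that of Lrp1 (0.65 ± 0.21, adjusted p = 0.176), in the data as deposited or under any of the 25 alternatives. Lrp1 read 9.41 and 9.27 in WT, 10.35 and 10.12 in KO and 10.21 and 10.09 in LysM (0.89 ± 0.16 and 0.81 ± 0.16, adjusted p = 0.00643 and 0.0064). The KO calls of both genes were lost in a fit of only the arrays compared and without IL-4c WT replicate 2 or KO replicate 1, the LysM call of Cd63 only in the fit of the arrays compared, and that of Lrp1 there, without IL-4c WT replicate 2 and without LysM replicate 1.

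**Figure D5:**
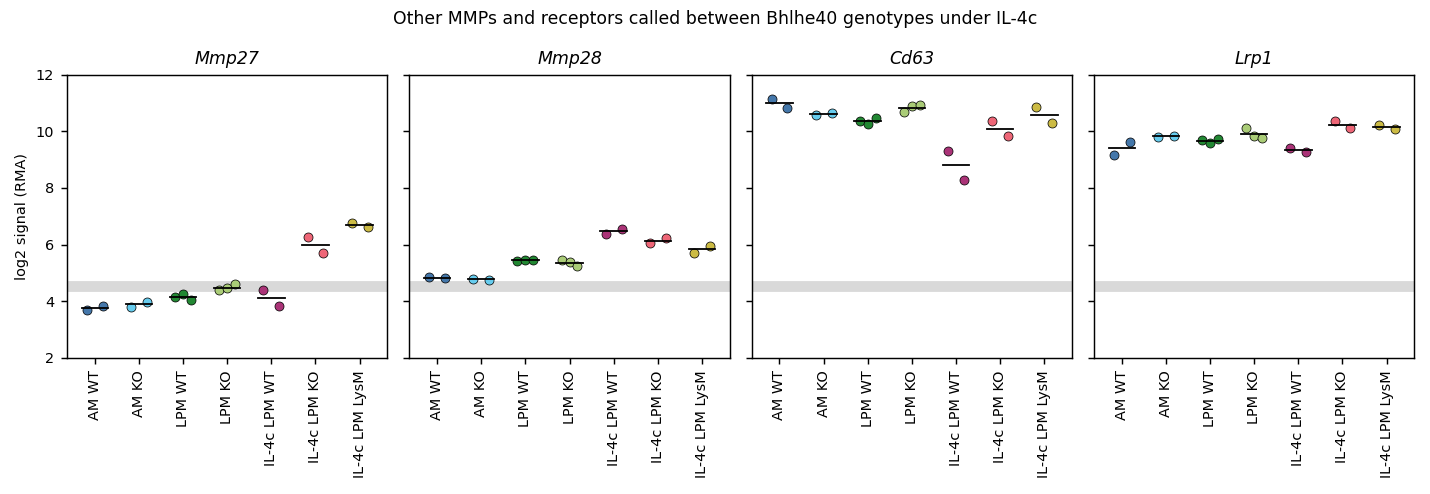
Log2 signal on each array of Mmp27, Mmp28, Cd63 and Lrp1, with the 7 groups along the x axis, a line at each group mean and the background reference in grey. After IL-4c, Mmp27, Cd63 and Lrp1 are higher on the KO and LysM arrays than on the WT arrays, and Mmp28 is lower on the LysM arrays (5.71 and 5.95) than on the WT arrays (6.38 and 6.55).

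Proteases and receptors that activate or carry MMPs and ADAMs were also read, 10 tested of 15 measured. After IL-4c, 2 of them rose in WT and 5 in KO, against 22% and 21.9% of all genes, with Furin, which cleaves the precursors of MMP14 and ADAMs, at 0.87 ± 0.27 in KO (adjusted p = 0.0189) and 0.09 ± 0.27 in WT. Its interaction was 0.79 ± 0.38 (adjusted p = 0.401), and limma called 0 of the 10 for genotype by IL-4c, with 0 at an unadjusted p under 0.05. In LysM against WT, Furin (1.23 ± 0.30, adjusted p = 0.0178) and Tspan5, a partner of ADAM10 (0.75 ± 0.20, adjusted p = 0.0250), were called. Between tissues Serpinb2, an inhibitor of plasminogen activators, was 7.93 higher in WT LPM than in AM, while Furin and Plaur were 1.71 and 1.20 lower. Serpinb2 read 3.78 to 4.32 on the AM arrays, below the background reference, so its difference gives the direction and only part of the size. Of 15 tested matrix substrates, Fn1 (fibronectin) and Lamc1 (a laminin chain) fell after IL-4c in WT by 0.78 and 0.68. Nid1 (nidogen) rose by 0.48, from a level below the reference on the naive WT arrays. Of 10 further protease inhibitors only 2 passed the filter, and Pzp, a broad protease trap, was called between tissues (-1.17 in WT and -1.01 in KO). Pzp lay below the reference on all LPM arrays, which limits the size read.

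The genes most like the 4 tested members with the widest range of group means were found by Pearson correlation over the 16 arrays, among 11141 genes. For Timp1 these were Nexmif (0.979), Klk9 (0.974) and Slc38a10 (0.974), and for Adam8 Sel1l3 (0.989), Arg1 (0.988) and Tmc8 (0.987). For Mmp8 they were Fabp1 (0.994), Mcoln3 (0.993) and Sh2d1b1 (0.993), and for Mmp19 Nceh1 (0.992), Agap1 (0.992) and Ctsk (0.992). Fabp1 is one of the AM markers, and Arg1, arginase, is a classic IL-4 response gene. Among the members themselves Mmp8 and Mmp19 correlated at 0.971, Timp1 and Mmp14 at 0.887 and Timp2 and Mmp8 at -0.978. All these values describe 16 arrays in 7 groups that share tissue and treatment, so they carry no test.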

How the data were processed

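The values are the authors' deposited log2 signals, 1 per probe set and array. Per the submitters' processing notes, RMA was used. Its software and version, and the set of arrays it was run on, were not given in the sources used here. Of 30177 probe sets, 21789 carried 1 gene symbol, 1621 several and 6767 none, and only the first were named. Where a gene had several, the brightest on average stood for it. The 16 arrays were grouped by their labels, and no arrays held identical values.

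Group means of all 16 arrays were fitted with limma 3.58.1 in R 4.3.3 (lmFit and eBayes), with Benjamini-Hochberg adjustment over 11634 genes in each of 11 comparisons, after tests on simulated data. A further 8304 genes were too dim to test. Figures were drawn with matplotlib 3.10.9. The number of arrays limits the precision. All 10 members were named. From the other lists only some called genes were named, at most 4 per list and comparison. A gene left unnamed may also have been called and may have differed more. Members and lists were chosen with earlier results of these data known. Alternatives were another scaling, filter, probe set rule or variance model, a fit of only the arrays compared, weights for arrays, a block for the replicate number, and omission of 1 array at a time. Protein sequences were not used here.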

Additional observations from a re-analysis of the deposited data

Results flagged for a closer look

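The effect of IL-4c on Mmp27, the neighbour of Mmp8, differed between KO and WT LPM by 1.53 ± 0.25 on the log2 scale in a test of the interaction itself (limma, adjusted p = 0.00999). Over 25 alternative settings the difference ranged from 1.24 to 1.81. The call was lost without IL-4c WT replicate 2 and without IL-4c KO replicate 1. All WT arrays and most naive KO arrays lay at background, so the value gives the direction and only part of the size. Mmp27 also passed the filter only through the IL-4c KO and LysM arrays.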

How the results depend on the processing

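No called difference of a member changed sign under the 25 alternatives run. For LysM against WT, quantile normalization again called 1 member, the replicate block 2 (Timp1, adjusted p = 0.0478, and Mmp12, adjusted p = 0.0470), and leaving out 1 array 0 to 2. For KO against WT after IL-4c, quantile normalization again called 1, Timp2 (limma, adjusted p = 0.0445). The member that this scaling called for LysM against WT was also Timp2 (adjusted p = 0.0245). For LysM against KO, leaving out 1 array called 0 to 1. For IL-4c in KO, a fit of only the arrays compared called 3, and leaving out 1 array 3 to 5. The replicate numbers were not taken to pair arrays, since the labels give them no shared source. Same-numbered pairs correlated from -0.14 to 0.21 over 43 pairs. Deviations from the mean of 2 arrays mirror each other, so these pairs are not independent and their range does not decide the question. Within the IL-4c groups, with 2 pairs each, the deviations correlated at 0.115 (WT and KO), 0.148 (WT and LysM) and 0.210 (KO and LysM). Timp1 and Mmp12 read higher on replicate 1 than on replicate 2 in each of these groups. In KO LPM the block left 4 members called after IL-4c.

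Differences that were not called changed sign as follows. With quantile normalization again, Timp2 read 0.006 for KO in naive LPM and 0.004 for LysM against KO, and Mmp8 read -0.002 for IL-4c in WT. With median centring Mmp12 read 0.019 for KO in AM. Leaving out 1 array gave, for KO in AM, Timp1 -0.349 to 0.025, Timp2 -0.131 to 0.309, Mmp12 -0.458 to 0.397 and Mmp19 -0.481 to 0.633, and for KO in naive LPM Mmp8 -0.235 to 0.185. For KO after IL-4c it gave Timp1 -0.562 to 1.488 and Adam8 -0.037 to 0.409, and for LysM against WT Mmp9 -0.019 to 0.061 and Mmp19 -0.172 to 0.793. For LysM against KO it gave Timp2 -0.143 to 0.004, Mmp8 -0.067 to 0.076, Mmp12 -0.423 to 3.921, Mmp14 -0.177 to 0.126, Mmp19 -0.379 to 0.586 and Adam8 -0.002 to 0.533. For IL-4c in WT it gave Mmp8 -0.121 to 0.300 and Mmp19 -0.186 to 0.047. The cause was not tested.

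Counts of all called genes moved by more than 1.5 times in a fit of only the arrays compared, from 422 to 117 for KO after IL-4c, from 1009 to 150 for LysM against WT, from 2 to 0 for LysM against KO and from 29 to 62 for genotype by tissue. With array weights the count was 419 in place of 219 for KO in naive LPM, 61 for genotype by tissue and 1 for LysM against KO, also 1 with the block. With trend and robust variance it was 8 for LysM against KO and 109 in place of 64 for genotype by IL-4c, and the mean of probe sets gave 45 for genotype by tissue. Signals near background limit Timp3, Mmp13, naive Timp1, Mmp8 and Mmp12 in LPM, Mmp9 in AM and Mmp27 in AM, WT LPM and naive KO LPM. They also limit Serpinb2 in AM, Adam22 and Pzp in LPM and Nid1 in naive WT LPM.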
